A study of Homo sapiens with 36 samples.

Results

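The first 6 days after removal of interleukin-1β (IL-1β) were examined here as a difference of responses. A response is the expression of a gene in cells exposed to IL-1β over that in untreated control cells collected at the same time, on the log2 scale. The response at day 21 of exposure was subtracted from the response at day 6 after withdrawal, so that a negative value marks a response that was lower, and a positive value one that was higher, once the cytokine was gone. Of the 36 libraries of the series, 12 entered this comparison, with 3 in each of 4 groups, and 26 of the 19180 genes tested passed both thresholds (adjusted p under 0.05 and a fold change over 2). Among these 26 genes, the response of 17 fell and that of 9 rose.

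The cells were A549, an established line of human non-small cell lung cancer with epithelial features, grown in RPMI medium with fetal bovine serum. The study asked whether an epithelial-to-mesenchymal transition brought on by chronic IL-1β is kept after the cytokine is gone, and collected RNA 3 times during exposure (days 6, 15 and 21) and 3 times after withdrawal (days 6, 15 and 30). The 4 groups were untreated cells of the day 21 collection, cells in IL-1β at 1 ng/ml on day 21, untreated cells of the collection made 6 days after withdrawal, and cells exposed for 21 days and then cultured for 6 days without IL-1β. Controls and exposed cells shared the medium and were split on the same schedule, and the controls never received IL-1β. All libraries come from this 1 cell line, and the labels do not say whether the 3 replicates of a group were separate cultures, so the p-values measure the spread between these libraries only.

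IL-1β binds its receptor on epithelial cells and signals through MyD88 and IRAK kinases to NF-κB and to MAP kinases, which drive AP-1 factors. Free NF-κB dimers bind short κB sequences in promoters and enhancers of chemokines, cytokines and antiapoptotic genes, and also of their own inhibitors, such as the IκB proteins and TNFAIP3, so that transcription of many such genes needs continued signalling. Other genes that change under chronic cytokine exposure, such as those of an epithelial-to-mesenchymal transition, depend on transcription factors and chromatin states that may outlast the first signal.

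Between 9116032 and 23570026 reads were counted on genes per library, both over the 36 libraries and over the 12. In 4 of the 12 libraries more than 10% of the counts fell on mitochondrially encoded genes: replicate 2 with IL-1β at day 21 (11.8%), control replicates 1 (19.2%) and 2 (17.7%) of day 6 after withdrawal, and replicate 2 of the withdrawn cells (23.0%). The other 8 libraries lay between 5.61% and 7.75%, among them all 4 libraries numbered 3. Of the epithelial markers, KRT7 ranged from 1101 to 2223 counts per 1000000 (CPM), KRT8 from 541 to 4096 CPM and KRT18 from 274 to 2165 CPM, whereas EPCAM stayed at 0.350 to 1.36 and KRT19 at 0 to 4 counts. The epithelial list summed to 6314 to 7246 CPM in the day 21 controls and to 2877 to 3669 with IL-1β at day 21. In the later controls the sum was 3720 to 8307 CPM, and in the withdrawn cells 1966 to 5363. Of 6 immune markers, CD3E was at 0 in all 12 libraries, PTPRC had at most 1 count, and the summed level of the list was 2.96 to 10.1 CPM over the 4 groups. The 4 endothelial markers had at most 5 counts each, and 6 fibroblast markers summed to 2.19 to 3.68 CPM with IL-1β at day 21 and to 1.23 to 1.94 in the other 3 groups, most of it COL1A1. These are bulk libraries, in which fewer cells that express a gene and less RNA of it per cell cannot be told apart.

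Hereafter, levels are given as CPM scaled by trimmed mean of M values (TMM), for replicates 1, 2 and 3 in that order, and differences as log2 values with their standard errors. Adjusted p-values come from the quasi-likelihood test of edgeR, adjusted over all 19180 genes by the Benjamini-Hochberg method, and called means past both thresholds. The 17 genes with a lower response are 0.0886% of the genes tested and the 9 with a higher response 0.0469%. There were 539 genes (2.81%) with an unadjusted p under 0.05, 251 lower and 288 higher, and the median difference over all genes was 0.01. Closest inside the threshold were SVIL (-1.11, adjusted p = 0.015), PID1 (-1.97, adjusted p = 0.017) and AKR1B10 (1.20, adjusted p = 0.018), and closest outside were MT1X (-2.20, adjusted p = 0.056) and LINC02532 (2.64, adjusted p = 0.068). TGFBI, at -0.98 ± 0.18 with an adjusted p of 0.0052, missed only the fold threshold.

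A further fit left out all 11 libraries of the series that had over 10% mitochondrial counts. Of the later controls only replicate 3 remained in it, and of the withdrawn cells only replicates 1 and 3, so its calls are not given. All 26 differences kept their sign. CXCL8 stood at -5.66, CXCL1 at -5.78, LBH at 2.68 and INHBB at 1.32, while SVIL (-0.90) and SLC25A37 (-0.86) fell short of the fold threshold. In the 4 libraries numbered 3, all with a low mitochondrial share, the difference of responses ran from -5.52 to -0.92 over the 17 lower genes and from 1.21 to 2.06 over the 9 higher ones. These libraries are among the 12 on which the genes were chosen, and the numbers were not taken as pairs. Nothing is read from the shared direction. The part of the mitochondrial share in the calls was not tested beyond these values.

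The largest falls were those of CXCL8 and CXCL1, CXC chemokines of the kind that attract neutrophils through CXCR1 or CXCR2. Of 7 tested genes of the list of CXC chemokines, which is wider than this kind, 5 were called lower (background 0.0886%). They were CXCL8, CXCL1, CXCL3, CXCL2 and CXCL5. In 3 of these the withdrawn cells overlapped the controls, whereas over all genes these 2 groups did not overlap in 10.8%. All 5 lie within 358678 bases of the long arm of chromosome 4 (GRCh37, chr4:74606236-74964913), an interval that holds 16 listed genes, 9 of them protein coding. The only other gene of this interval that could be tested was the pseudogene HNRNPA1P55, whose difference was 0.38 and was not called. The 130 bases before the start site of these genes are printed here because NF-κB is known to act through such promoters. Printed with them are CCL20, TNFAIP3 and, for contrast, TNC, an induced gene without a called difference of responses. CCL20, TNFAIP3 and TNC were each still called after withdrawal. Capitals mark matches to GGNNNTTCC on either strand, a κB-like motif.

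CXCL8: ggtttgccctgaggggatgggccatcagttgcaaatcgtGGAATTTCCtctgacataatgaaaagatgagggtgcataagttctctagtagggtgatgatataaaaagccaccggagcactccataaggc
CXCL1: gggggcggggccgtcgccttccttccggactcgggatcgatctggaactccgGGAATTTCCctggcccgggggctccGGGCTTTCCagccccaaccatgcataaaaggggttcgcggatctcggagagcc
CXCL2: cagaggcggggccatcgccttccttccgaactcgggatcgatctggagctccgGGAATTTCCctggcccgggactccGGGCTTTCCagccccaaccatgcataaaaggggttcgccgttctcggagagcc
CXCL3: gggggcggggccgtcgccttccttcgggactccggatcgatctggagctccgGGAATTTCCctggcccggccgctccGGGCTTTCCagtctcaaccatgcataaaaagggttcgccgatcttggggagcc
CXCL5: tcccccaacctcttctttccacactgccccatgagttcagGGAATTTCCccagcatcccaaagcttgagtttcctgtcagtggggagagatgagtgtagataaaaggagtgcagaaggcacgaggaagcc
CCL20: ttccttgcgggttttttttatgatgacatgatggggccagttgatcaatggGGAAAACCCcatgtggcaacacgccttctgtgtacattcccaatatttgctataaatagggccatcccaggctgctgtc
TNFAIP3: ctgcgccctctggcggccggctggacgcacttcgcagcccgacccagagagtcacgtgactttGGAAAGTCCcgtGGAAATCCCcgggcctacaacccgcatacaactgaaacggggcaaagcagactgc
TNC: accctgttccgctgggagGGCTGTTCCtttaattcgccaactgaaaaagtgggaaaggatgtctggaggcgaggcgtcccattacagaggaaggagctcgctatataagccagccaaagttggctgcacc

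The sequences are those of RefSeq on GRCh38.p14, a later build than the GRCh37 of the counts, and no coordinate was converted: CXCL8 at chr4:73740439-73740568 (+ strand), CXCL1 at chr4:73869263-73869392 (+ strand), CXCL2 at chr4:74099196-74099325 (- strand), CXCL3 at chr4:74038690-74038819 (- strand) and CXCL5 at chr4:73998678-73998807 (- strand). CCL20 is shown from chr2:227813712-227813841 (+ strand), TNFAIP3 from chr6:137867129-137867258 (+ strand) and TNC from chr9:115118158-115118287 (- strand), all written 5′ to 3′ on the coding strand. CXCL1 and CXCL3 held the motif 78 and 53 bases before the start, CXCL2 77 and 53, CXCL8 91, CXCL5 90, CCL20 79, TNFAIP3 67 and 55, and TNC 112. A second match of TNC, 217 bases before the start, lies outside the stretch shown.

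CXCL8 stood at 0.5698, 0.845 and 0.677 CPM in the 3 control libraries of day 21, at 88.7, 69.2 and 95.7 with IL-1β, at 0.258, 1.47 and 0.945 in the controls of day 6 after withdrawal and at 2.29, 2.32 and 2.66 in the withdrawn cells. The induced libraries lay far above the rest, and the withdrawn cells sat just above the controls without overlap. The difference of responses was -5.55 ± 0.63 (95% interval -6.83 to -4.27, adjusted p = 6.6e-06), as the response went from 6.91 to 1.36, the latter not called (adjusted p = 0.12). CXCL1 went from 84.5, 85.2 and 129 CPM with IL-1β to 2.08, 1.62 and 3.07 after withdrawal, against 2.22, 1.87 and 2.79 and 1.68, 2.16 and 3.09 in the controls of the same days. The withdrawn cells thus overlapped their controls, with a response of -0.06 ± 0.31 and a difference of -5.48 ± 0.43 (adjusted p = 7.6e-09). CXCL3 (66.96, 62.4 and 46.3 CPM with IL-1β, 6.06, 3.48 and 4.17 after withdrawal) also reached the range of its later controls (2.84, 3.54 and 4.47). Its difference was -3.84 ± 0.43 (adjusted p = 6.6e-06).

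CXCL2 fell from 57.2, 53.7 and 50.8 CPM to 5.79, 8.93 and 5.56, while its controls stood at 2.96, 3.02 and 2.79 and then 3.74, 3.02 and 3.35. All 3 withdrawn libraries of CXCL2 stayed above all 3 controls, and the remaining response of 0.99 ± 0.24 (adjusted p = 0.015) was just short of the fold threshold. CXCL5 differed from the other 4 in being well expressed without IL-1β, at 250.1, 226 and 242 CPM in the day 21 controls and 155, 218 and 202 in the later ones. IL-1β took it to 1487, 1060.2 and 1393 CPM, and withdrawal returned it to 261, 235 and 198. Of these, 261 and 235 lay above all 3 later controls and 198 among them. Against the controls of both days together, only 261 lay above the highest. The difference was -3.21 ± 0.33 for CXCL2 (adjusted p = 1.9e-06) and -2.19 ± 0.33 for CXCL5 (adjusted p = 7.4e-04). Over the 7 tested genes of the list of CXC chemokines the median response was 4.16 at day 21 and 0.27 after withdrawal, against -0.0077 and -0.0014 over all genes.

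Among CC chemokines, CCL20, which attracts CCR6-bearing lymphocytes and dendritic cells, was called. CCL20 stood at 0.5698, 0.362 and 0.159 CPM in the day 21 controls, 16.3, 14.4 and 19.99 with IL-1β, 0.774, 0.259 and 0.515 in the later controls and 2.24, 2.09 and 2.201 after withdrawal. The withdrawn libraries were well below the induced ones, yet all lay above every control library. CCL20 was therefore called both in the difference (-3.45 ± 0.66, adjusted p = 0.012) and in what remained after withdrawal (2.12 ± 0.46, adjusted p = 0.0069). CCL2, a monocyte attractant, showed 29.4, 41.2 and 39.9 CPM with IL-1β and 8.68, 13.7 and 5.21 after withdrawal, against 2.56, 2.96 and 2.55 and 3.61, 3.37 and 2.06 in controls. Its difference of -2.15 ± 0.55 was not called (adjusted p = 0.18), while its response after withdrawal was (1.62 ± 0.40, adjusted p = 0.019).

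The inhibitors that NF-κB induces against itself made up the next group. Of 21 tested NF-κB subunits and feedback genes, 10 were called higher at day 21 (background 2.19%) and 2 after withdrawal (background 1.08%). A lower difference of responses was called in 4 (background 0.0886%). TNFAIP3 stood at 7.92, 9.47 and 8.24 CPM in the day 21 controls, 71.03, 71.04 and 94.4 with IL-1β, 8.12, 6.997 and 7.21 in the later controls and 18.5, 16 and 19.3 after withdrawal. This gene encodes A20, the ubiquitin-editing enzyme that shuts off signalling to NF-κB. Its response went from 3.21 to 1.27 ± 0.21, still called (adjusted p = 4.7e-04), and the withdrawn libraries lay between controls and induced cells without overlap; the difference was -1.93 ± 0.30 (adjusted p = 9.8e-04). NFKBIZ, a nuclear IκB protein needed for secondary target genes, stood at 40.3, 38.8 and 47.9 CPM with IL-1β and at 7.26, 9.97 and 11.6 after withdrawal, where its controls had 11.5, 12.7 and 14.3. Its libraries overlapped the controls again, with a difference of -2.26 ± 0.34 (adjusted p = 9.4e-04).

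ZC3H12A, the RNase also known as regnase-1 that degrades cytokine mRNAs, went from 97.1, 91.8 and 151 CPM to 11.6, 5.45 and 15.9. Its later controls had 11.6, 6.05 and 16.2 CPM, the same order of low and high over the replicate numbers as in the withdrawn cells, and the remaining response was -0.03 ± 0.44. The difference was -3.44 ± 0.63 (adjusted p = 0.0069). TNIP1, a partner of A20, moved from 645, 769 and 765 to 285, 358 and 239 CPM, with later controls at 318, 265 and 190.2 and a difference of -1.45 ± 0.25 (adjusted p = 0.0038). NFKBIA, which encodes IκBα, was not called in the difference (-1.14 ± 0.27, adjusted p = 0.13), with 117, 131 and 140.2 CPM under IL-1β and 62.97, 49.5 and 66.5 after withdrawal.

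The other genes whose response fell were of varied function, and ZNF792, SVIL and SLC25A37 among them are named after their values were seen. LCN2 stood at 0.627, 0.905 and 0.956 CPM in the day 21 controls, 6.25, 6.66 and 10.1 with IL-1β, 1.16, 0.605 and 1.25 in the later controls and 0.0546, 0 and 0.753 after withdrawal. LCN2 encodes lipocalin 2, an iron-scavenging defence protein, and in the withdrawn cells 2 of 3 libraries lay below every control. Its difference was -4.90 ± 0.84 (adjusted p = 0.0038), and its response after withdrawal, -1.71 ± 0.67, was not called (adjusted p = 0.28). Without withdrawn replicate 3 the difference of LCN2 was -7.72, with at most 1 count in the withdrawn libraries left, where a fitted value depends on the prior count. C15orf48, whose transcript also carries the microRNA miR-147b, went from 68.4, 65.9 and 146 to 9.503, 8.695 and 11.1 CPM, above its later controls (3.74, 4.15 and 2.88), with a difference of -3.55 ± 0.60 (adjusted p = 0.0035). ABAT, the transaminase that degrades GABA, showed 30.5, 32.9 and 27.3 CPM with IL-1β and 5.19, 4.52 and 4.98 after withdrawal. All of its withdrawn libraries stayed above the later controls (1.16, 0.605 and 1.29 CPM), so that a response of 2.24 ± 0.31 (adjusted p = 5.9e-05) remained of 4.67.

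PID1, an adaptor linked to insulin and lipoprotein receptor signalling, fell from 11.5, 10.4 and 13.6 to 3.71, 4.99 and 2.43 CPM and kept a called response of 1.39 ± 0.28 (adjusted p = 0.0034). ZNF792, a zinc finger protein, went from 11.8, 10.9 and 10.3 to 3.44, 3.13 and 5.27 CPM (difference -1.56 ± 0.27), back among its controls at 4.26, 3.63 and 5.11. SVIL, which encodes the actin-binding protein supervillin, had 58.3, 59.4 and 59.3 CPM with IL-1β and 31.2, 36.8 and 29.5 after withdrawal (difference -1.11 ± 0.22). SLC25A37, the mitochondrial iron carrier mitoferrin-1, had 114, 128 and 106 and then 60.2, 51.2 and 57.6 CPM (difference -1.07 ± 0.19), with all 3 withdrawn libraries above the later controls at 49.4, 44.2 and 43.2. All 17 lower genes had been called higher at day 21, a response that is part of the difference on which they were chosen. After withdrawal 4 of the 17 were still called (CCL20, ABAT, PID1 and TNFAIP3), for 8 the 95% interval of the response included 0, and in 9 the withdrawn libraries overlapped the controls.

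**Figure D1:**
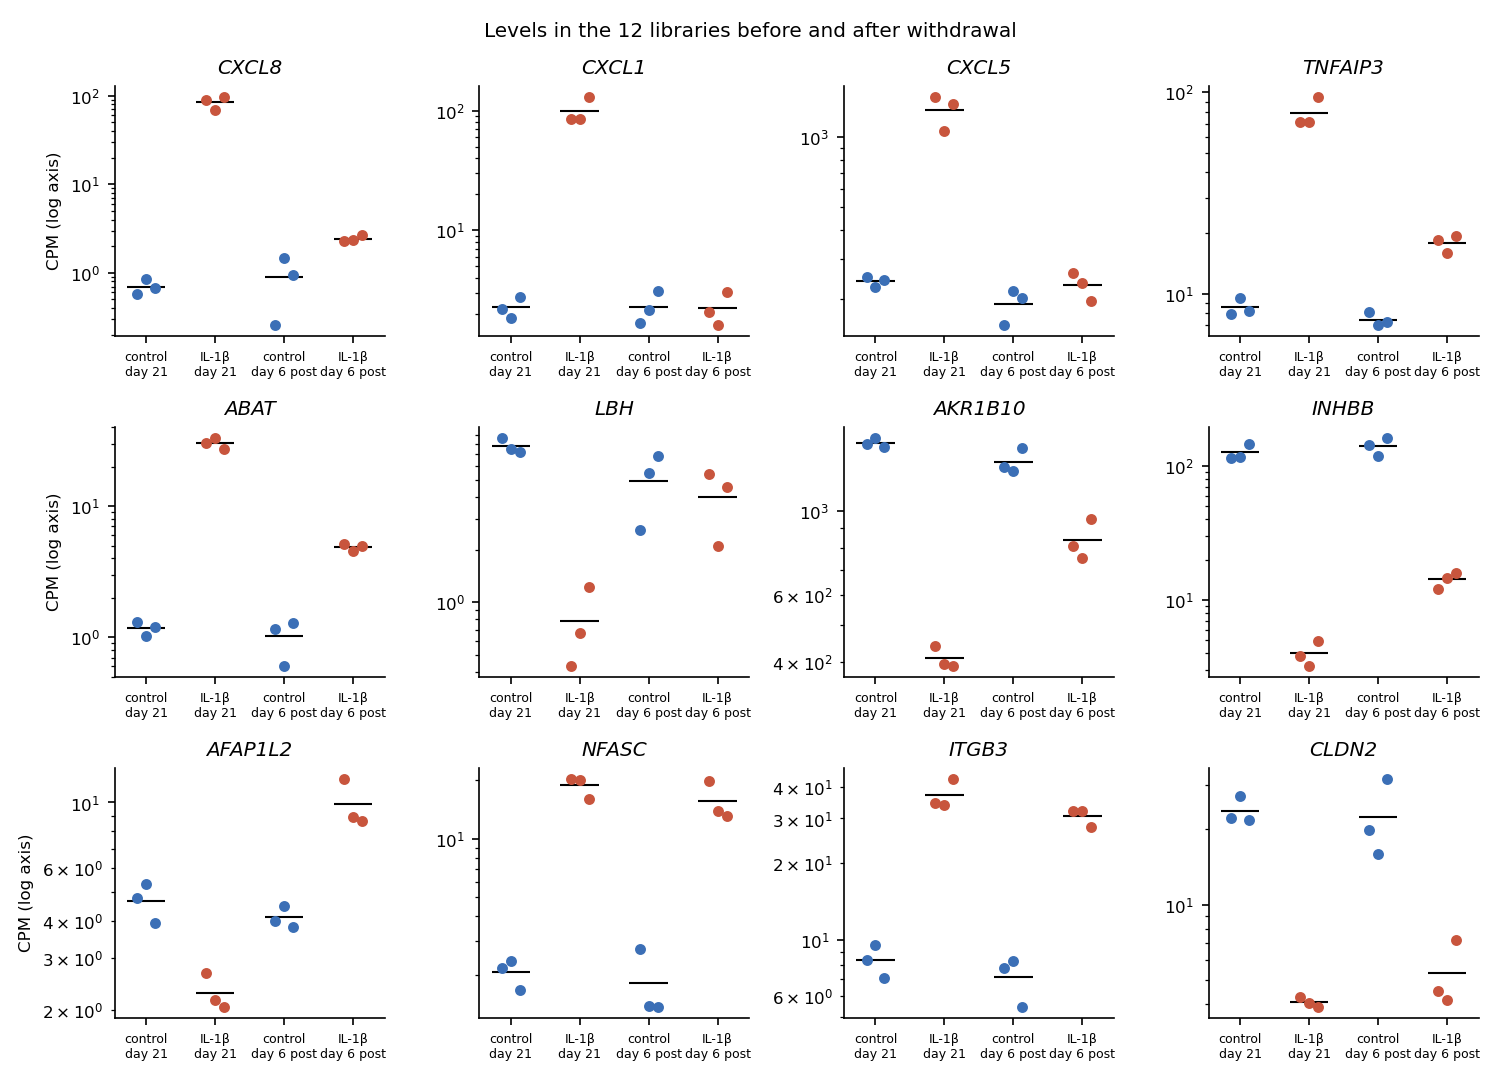
CPM (counts per 1000000, log axis) of 12 genes in each of the 12 libraries, by group; points are libraries and the line is the group mean. The withdrawn libraries of CXCL1 and CXCL5 overlap the controls, TNFAIP3 and ABAT stop between control and induced levels, and the withdrawn cells of NFASC, ITGB3 and CLDN2 lie close to those with IL-1β and apart from their controls.

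Fewer genes had a response that rose after withdrawal, and they were mostly genes that IL-1β had repressed. Of these 9 genes, 7 had been called lower at day 21 (background 2.06%). The response at day 21 is part of the difference on which the 9 were chosen, so nothing is read from this share. LBH stood at 8.604, 7.48 and 7.17 CPM in the day 21 controls, 0.434, 0.674 and 1.23 with IL-1β, 2.58, 5.44 and 6.83 in the later controls and 5.41, 2.09 and 4.52 after withdrawal. LBH, a transcriptional cofactor and Wnt target, thus overlapped its controls again after withdrawal, and in those controls replicate 1 lay well below the others. Its difference was 2.95 ± 0.51 (adjusted p = 0.0038), the largest of the 9. REEP1, a shaper of the endoplasmic reticulum, was low throughout, at 0.217, 0.225 and 0.287 CPM with IL-1β and 1.09, 0.812 and 0.753 after withdrawal against 1.37, 1.45 and 1.19 and 0.645, 0.864 and 0.902 in controls. It overlapped its controls as well (difference 2.51 ± 0.41, adjusted p = 0.0027).

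INHBB stood at 116, 117 and 148 CPM in the day 21 controls, 3.801, 3.22 and 4.97 with IL-1β, 145, 118 and 161 in the later controls and 12.2, 14.7 and 15.99 after withdrawal. INHBB encodes the β-B subunit of activin and inhibin, ligands of the TGF-β family. The withdrawn libraries rose above the exposed ones yet remained far below every control, with a response of -4.97 at day 21 and -3.31 ± 0.21 after withdrawal (adjusted p = 3.1e-11), and a difference of 1.66 ± 0.28 (adjusted p = 0.0031). GFRA1, a receptor for the GDNF family, went from 7.39, 8.68 and 8.74 to 22.8, 23.3 and 21.3 CPM with later controls at 33.5, 36.4 and 31.3, and DAPK1, a proapoptotic kinase, from 42.1, 33.3 and 51.2 to 97.9, 77.3 and 134 with later controls at 135, 148 and 193. Both remained below their controls without overlap, and the differences were 1.53 ± 0.24 for GFRA1 and 1.44 ± 0.27 for DAPK1 (adjusted p = 0.0012 and 0.0083). AKR1B10, an aldo-keto reductase regulated by NRF2, stood at 1499, 1553 and 1473 CPM in the day 21 controls, 442, 397 and 391 with IL-1β, 1305, 1271 and 1464 in the later controls and 809.9, 753 and 952 after withdrawal, a difference of 1.20 ± 0.24 (adjusted p = 0.018).

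In 3 of the 9 genes the withdrawn cells lay above their controls. AFAP1L2 stood at 4.79, 5.31 and 3.94 CPM in the day 21 controls, 2.66, 2.171 and 2.05 with IL-1β, 3.997, 4.49 and 3.82 in the later controls and 11.96, 8.93 and 8.69 after withdrawal. AFAP1L2, a Src-binding adaptor, was called lower at day 21 (-1.02 ± 0.24) and higher after withdrawal (1.27 ± 0.23), and in both cases exposed and control libraries did not overlap; the difference was 2.29 ± 0.33 (adjusted p = 5.6e-04). PRSS23, a serine protease, took the same course with smaller responses (-0.71 ± 0.12 and 0.49 ± 0.12) and a difference of 1.20 ± 0.17 (adjusted p = 3.6e-04). MATN2, an extracellular matrix adaptor of the matrilin family, had 26.1, 28.3 and 25.7 CPM with IL-1β against 25.6, 27.7 and 24.4 in controls, with overlapping ranges. After withdrawal it stood at 62.7, 64 and 77.8 CPM against 25.9, 25.6 and 21.4, a response of 1.49 ± 0.19 (adjusted p = 1.4e-05) that was not called at day 21, and a difference of 1.45 ± 0.26 (adjusted p = 0.0052).

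A difference of responses can come from exposed cells or from controls, and the groups that make it up are given here side by side since they share libraries with it. Between day 21 and day 6 after withdrawal, the exposed cells changed in 88 genes, 55 lower (0.287%) and 33 higher (0.172%). Between the controls of the same days 0 genes were called by edgeR's quasi-likelihood test and 0 by DESeq2's Wald test, with 628 and 732 genes at p under 0.05 before adjustment. Later control replicates 1 and 2 had 19.2% and 17.7% mitochondrial counts, and replicate 3 had 7.10%. Without replicate 3 the edgeR test gave 2484 genes at p under 0.05 before adjustment, again with 0 called. The 0 calls therefore do not show that the controls did not move, and the part of their spread was not tested. Of the 26 genes, 24 were also called in the exposed cells alone and in the same direction, the exceptions being SVIL and PRSS23 (-0.86 and 0.95). In all 26 the exposed libraries of day 21 and of day 6 after withdrawal did not overlap, against 9.96% of all genes, but the 26 were chosen on these libraries and nothing is read from this. The controls moved by -0.68 to 0.50 in these genes, and 2 of the 26 had an unadjusted p under 0.05 there.

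**Figure D2:**
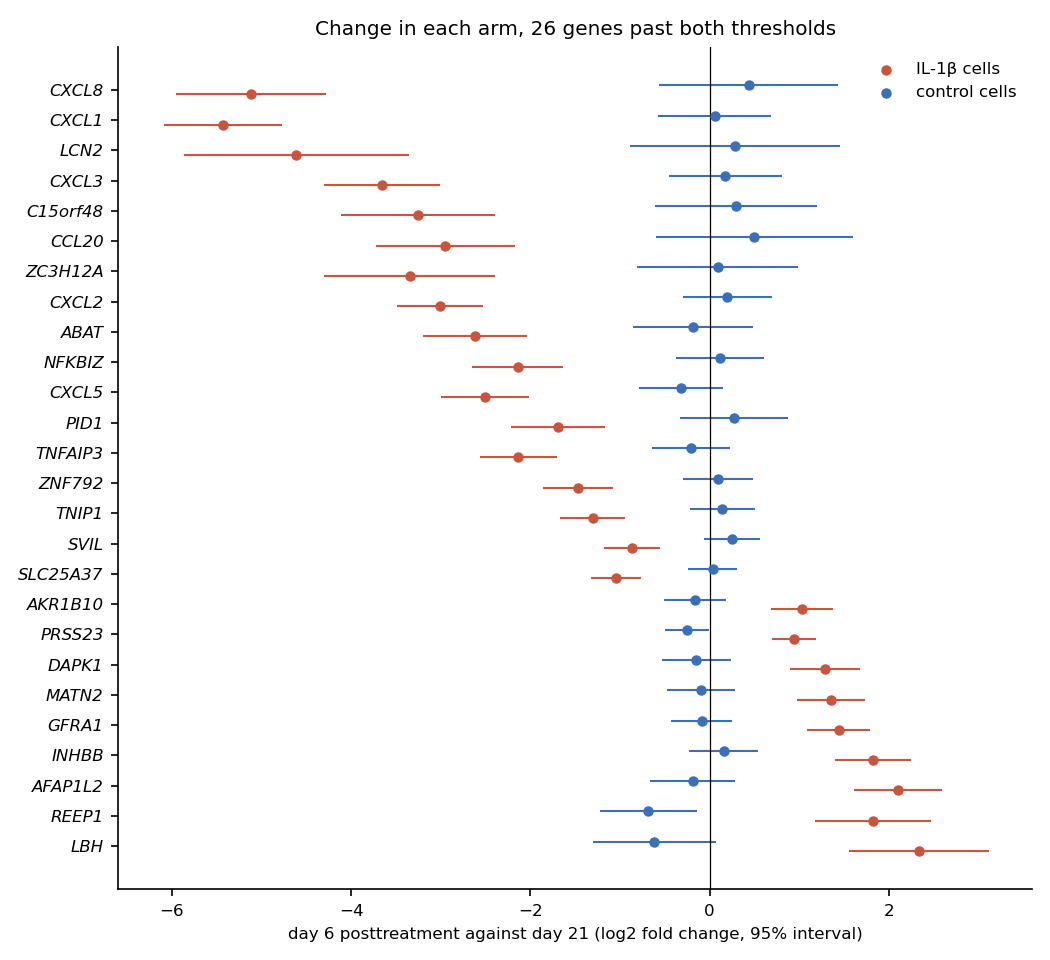
Change from day 21 to day 6 after withdrawal (log2, with 95% intervals) in exposed cells and in control cells for the 26 genes called in the difference of responses. The exposed libraries of the 2 times do not overlap in any of the 26, and the controls lie between -0.68 and 0.50.

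Genes that fell at once were set against those that did not, starting from responders defined in libraries outside the 4 groups compared. All 36 libraries share 1 fit and its estimate of the spread, so the 2 steps are not fully independent. At both day 6 and day 15 of exposure 228 genes were called higher and 186 lower. Of the 228 induced genes, 16 had a called fall of the response in the first 6 days, and 94 were still called higher at day 6 after withdrawal (background 1.08%). Of these, 4 genes did both, 12 fell and were no longer called, 90 were still called without a called fall, and 122 were neither. The count of 94 was 60 without later control replicate 3, 6 without all libraries numbered 1 and 38 without those numbered 2. The median response of the 228 went from 1.94 at day 21 to 1.16 after withdrawal (1.03 with genes at the count floor set to their bounds), and the median share of the day 21 log2 response that was left was 60.6%. The difference lay toward 0 in 201 of the 228, and in 83 of them the unadjusted p was under 0.05 in that direction and 0 in the other. Over all genes 70.4% lay toward 0, with 508 of 19180 at an unadjusted p under 0.05 in that direction and 31 in the other, as the response at day 21 enters both quantities. The median response of the 12 that fell and were no longer called went from 3.30 to 0.23.

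Of the 186 repressed genes, 5 recovered by the same rule (LBH, INHBB, GFRA1, DAPK1 and AKR1B10) and 88 were still called lower (background 0.725%), INHBB among both. The 88 became 52 without later control replicate 3, without withdrawn replicate 1 or without all libraries numbered 2, and 9 without those numbered 1, and the 5 became 3 without later control replicate 1 or withdrawn replicate 3 and 0 without all libraries numbered 1 or 2. Their median response went from -1.91 to -1.20, with a median of 63.5% of the log2 response left. The difference lay toward 0 in 169 of the 186, of which 57 had an unadjusted p under 0.05, against 1 away from 0, beside the same 70.4% over all genes. A group of 75 induced and 59 repressed genes was still called with an unadjusted p over 0.05 for the difference, which does not show that these responses did not differ. The 95% interval of the difference lay within -1 to 1 in 18 of the 75 and 7 of the 59. In this group the median response went from 2.16 to 1.92 in the induced and from -2.14 to -1.83 in the repressed genes. The group was chosen on the call after withdrawal and on the p of the difference, so nothing is read from these medians. No responder had a called difference away from 0.

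**Figure D3:**
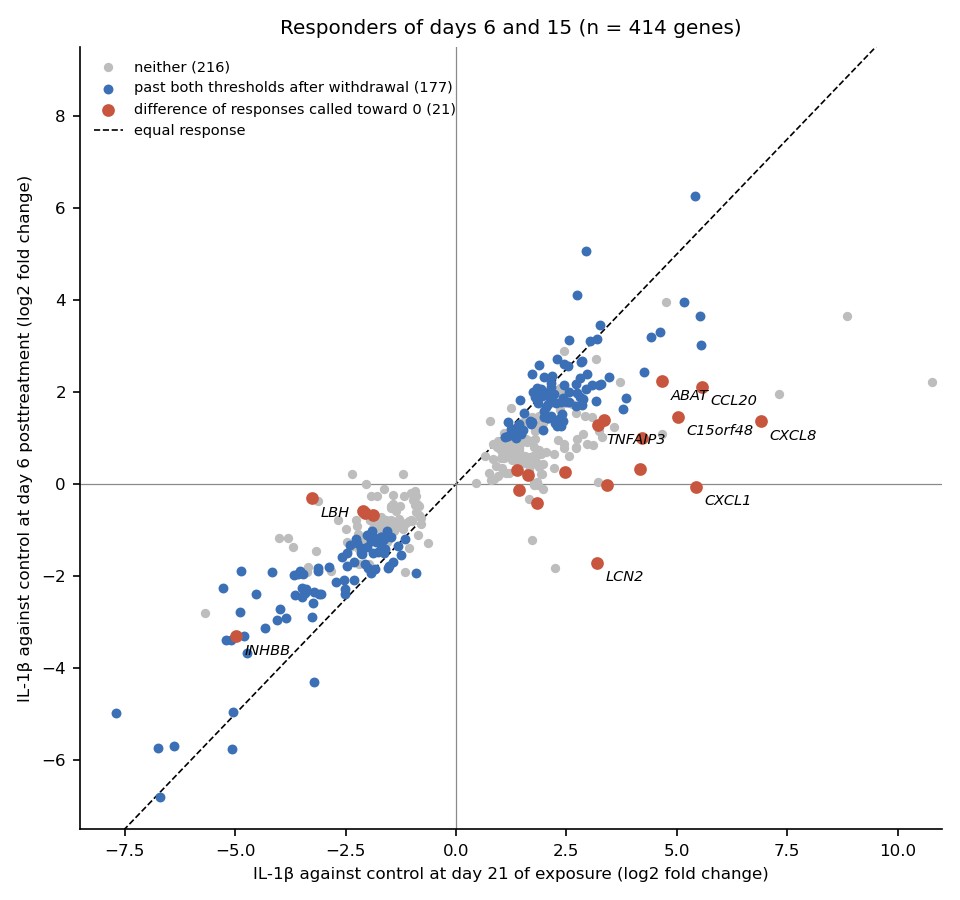
Response at day 6 after withdrawal against the response at day 21 (log2, fitted values) for the 414 genes called in the same direction at days 6 and 15 of exposure. Of these, 21 have a called difference toward 0, 177 are called after withdrawal without one and 216 are neither; points on the dashed line have equal responses.

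By a fixed rule, the 10 induced and 10 repressed genes with the largest remaining response in this group were named. The induced genes included TNC (tenascin-C, a matricellular protein), with 35.6, 38.7 and 41.1 CPM under IL-1β, 14.96, 13.6 and 9.91 after withdrawal and 2.06, 1.73 and 0.687 in the later controls. Its withdrawn libraries lay between the other 2 groups, with a response of 3.19 ± 0.51 (adjusted p = 2.9e-04) left of 4.42. PTPRD, a receptor tyrosine phosphatase, had 11.8, 10.1 and 10.01 CPM under IL-1β, 6.72, 6.49 and 7.299 after withdrawal and 0.645, 0.605 and 0.215 in the later controls (response 3.96 ± 0.42). NFASC, the cell adhesion molecule neurofascin, showed 20.1, 20.1 and 16.01 CPM and then 19.8, 13.8 and 12.98, so that its ranges with IL-1β and after withdrawal overlapped. Its response was 3.18 at day 21 and 3.15 ± 0.34 after withdrawal, and the 95% interval of the difference was -0.98 to 0.91. BHLHE41, a circadian repressor, kept 3.30 ± 0.54, INSYN2B 3.46 ± 0.73, the small GTPase RRAD 3.12 ± 0.54 and the lipid phosphatase PLPP4 4.11 ± 0.57.

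The other 3 induced genes had at most 3 counts in every later control library, so that only a lower bound can be given. PDCD1LG2, which encodes the checkpoint ligand PD-L2, stood at 1.53, 0.928 and 0.695 CPM after withdrawal, at least 4.07-fold higher than controls at a floor of 3 counts per library. IL1B itself stood at 3.26, 2.69 and 4.27 CPM under IL-1β and 0.928, 1.62 and 0.637 after withdrawal, at least 4.12-fold higher than controls. SAA1, an acute phase protein, was at least 2.12-fold higher than controls, which were at 0 counts in all 3 later libraries. Its exposed cells nevertheless went from 4.996, 3.74 and 9.398 to 0.601, 0.232 and 0.811 CPM, a called fall of -3.36 ± 0.56 in those cells (adjusted p = 0.001), and the difference of responses for SAA1 rests on the 0 counts of these controls.

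The repressed genes that stayed low included the 3 fibrinogen chains, liver and lung secretory products that A549 cells express. FGB stood at 10.2, 11.4 and 11.6 CPM in the later controls and at 0, 0.232 and 0.405 in the withdrawn cells (response -5.70 ± 0.61, adjusted p = 1.5e-06), and at 3 counts or fewer in the libraries of day 21 with IL-1β. FGA went from 0.434, 0.225 and 0.821 to 1.31, 0.696 and 2.61 CPM with later controls at 15.7, 18.6 and 27.1, a response of -3.67 ± 0.47 after -4.72, and FGG was at least 4.08-fold lower than its controls. All withdrawn libraries of the 3 chains lay below all controls. CEACAM6, a carcinoembryonic adhesion molecule, had 0.109, 0 and 0.463 CPM after withdrawal against 6.71, 6.39 and 8.42, DEFB1, β-defensin 1, 0.0546, 0 and 0.811 against 12.2, 9.59 and 31.2, and GPX2, a glutathione peroxidase, 1.26, 1.04 and 2.78 against 17.3, 11.2 and 22.9. Their responses were -4.98 ± 0.81, -5.73 ± 0.70 and -3.30 ± 0.52. Without withdrawn replicate 3 the response of DEFB1 was -8.65, with at most 1 count in the withdrawn libraries left, and without later control replicate 3 that of HGD was -1.85 and not called. PPARGC1A, a coactivator of mitochondrial genes, kept -4.31 ± 0.77 and HGD, an enzyme of tyrosine breakdown, -2.95 ± 0.55, while RASSF9 was at least 4.52-fold and the noncoding LINC02747 at least 1.57-fold lower.

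Genes that the study names for the epithelial-to-mesenchymal transition, for integrin and matrix interactions, for invasion or as immune checkpoints were not called in the difference. ITGB3, the integrin β3 subunit, stood at 34.6, 33.99 and 42.7 CPM with IL-1β and 32.1, 32.1 and 27.9 after withdrawal, against 8.32, 9.53 and 7.09 and 7.74, 8.29 and 5.45 in controls. Its response was 2.16 and then 2.11 ± 0.27, with a difference of -0.05 ± 0.37 (95% interval -0.81 to 0.70). SNAI2 and ZEB2, repressors of epithelial genes, had responses of 3.23 and 2.08 at day 21 and of 2.86 ± 0.49 and 1.43 ± 0.40 after withdrawal, both called. RUNX2 (1.36 and 1.20 ± 0.20) and CD274, which encodes PD-L1 (1.92 and 2.07 ± 0.51), were called at both times as well. CLDN2, a tight junction claudin, had 4.29, 4.04 and 3.899 CPM with IL-1β and 4.53, 4.17 and 7.24 after withdrawal, all below the controls, with responses of -2.54 and -2.08 ± 0.31. CDH1, E-cadherin, stood at 34.1, 27.5 and 63.1 CPM and then 62.4, 61.2 and 138 against later controls at 190.2, 191 and 260.4, with a difference of 0.95 ± 0.41 (unadjusted p = 0.03, adjusted p = 1) and a remaining response of -1.29 ± 0.30 that was called.

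FOXA1, an endoderm lineage factor, had responses of -1.0 and -1.16 ± 0.26, and SMAD6, an inhibitor of BMP signalling, of -1.72 and -0.84 ± 0.24, the latter not called (adjusted p = 0.059). The difference of SMAD6 (0.88 ± 0.34, unadjusted p = 0.016) was not called either. Without the 11 libraries of high mitochondrial share, the responses of SMAD6, CD274 and CDH1 after withdrawal were -1.14, 1.94 and -1.36. Only replicate 3 of the later controls remained in that fit, so its calls are not given. Leaving out 1 of the 12 libraries at a time ended the call after withdrawal of 7 of the 20 genes named by the rule: IL1B, SAA1, INSYN2B, FGG, HGD, LINC02747 and RASSF9. Control replicate 3 of day 6 after withdrawal ended 6 of these 7 calls, those other than RASSF9, and also those of CCL2, ZEB2, FOXA1, CD274 and CDH1. Withdrawn replicate 1 ended the calls of IL1B, FGG, LINC02747, RASSF9 and the same 5 study genes, withdrawn replicate 2 those of IL1B, FGG, CCL2, ZEB2, CD274 and CDH1, and later control replicate 1 those of IL1B, ZEB2 and CD274. ZEB2, at an adjusted p of 0.049, lost its call in 10 of the 12 fits, the exceptions being later control replicate 2 and withdrawn replicate 3.

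Read by function, the called differences of responses lay in few of the lists examined. Over all genes tested 2.19% were called higher and 2.06% lower at day 21, and 1.08% and 0.725% after withdrawal. The difference of responses was called lower in 0.0886% and higher in 0.0469%. The counts of each list stand against these shares. Apart from CXC chemokines, NF-κB genes and CCL20, LCN2 was the 1 called fall among 9 acute phase and defence genes and AKR1B10 the 1 called rise among 15 NRF2 targets, where 4 had been called lower at day 21 and 2 were after withdrawal. In exposed cells alone, 3 of the 9 defence genes were called lower between the 2 times. Of 19 tested cytokines and colony stimulating factors, 9 were called higher at day 21 and 4 after withdrawal, with no called difference, and their median response was 1.33 and then 0.88 (0.40 with genes at the floor set to their bounds). In exposed cells alone, 5 of these 19 were called lower between the 2 times, against 0.287% of all genes. A group was at the floor in 4 of the 19. The 18 mesenchymal and matricellular genes had 7 calls higher at day 21 and 5 after withdrawal, at medians of 0.85 and 0.89, and 0 called differences. The 14 transcription factors of epithelial-to-mesenchymal transition (4 higher and 1 lower, then 3 higher), the 15 integrin subunits (6, then 3 higher) and the 23 collagens, metalloproteinases and TIMPs (6 higher and 3 lower, then 3 and 3) also had 0 called differences. The lower side held the 18 fibrinogen, coagulation and plasminogen genes (7 lower and 4 higher at day 21, 5 and 2 after withdrawal), the 12 lineage factors (4 lower and then 4) and the 21 epithelial junction genes (4 lower and 1 higher, then 3 lower), again with 0.

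Lists with calls at day 21 and 0 after withdrawal were the CXC chemokines (5 higher and 1 lower at day 21), the 7 metallothioneins and zinc transporters (2 higher at day 21, medians 0.77 and 0.18) and the 13 MAPK phosphatases and Sprouty genes (2 higher, medians 0.42 and 0.18), the last 2 without a called difference. Of 14 AP-1 and related bZIP factors 4 and then 1 were called higher, of 27 interferon-stimulated genes 4 and then 3 (with 1 called lower at day 21), of 10 adhesion molecules and checkpoints 5 and then 3, and of 13 antiapoptotic and TNF receptor genes 2 and then 2. The 29 cell cycle and 15 MHC class I genes had 0 calls at either time, at medians of -0.15 and -0.15 and of 0.42 and 0.46. Of 15 complement genes 1 was called higher and 1 lower at day 21 and 1 lower after withdrawal, and of 14 IL-1 receptor and signalling genes likewise 1 and 1 and then 1 lower. Sterol and fatty acid synthesis had 2 and then 1 lower calls of 19, prostaglandin genes 1 and 1 lower of 10, mucins 2 and then 1 lower of 8, CEACAM genes 1 and 1 lower of 3, and stress and unfolded protein genes 1 and 1 higher of 18. The 13 mitochondrially encoded protein genes had a median difference of -0.52 with 0 calls.

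**Figure D4:**
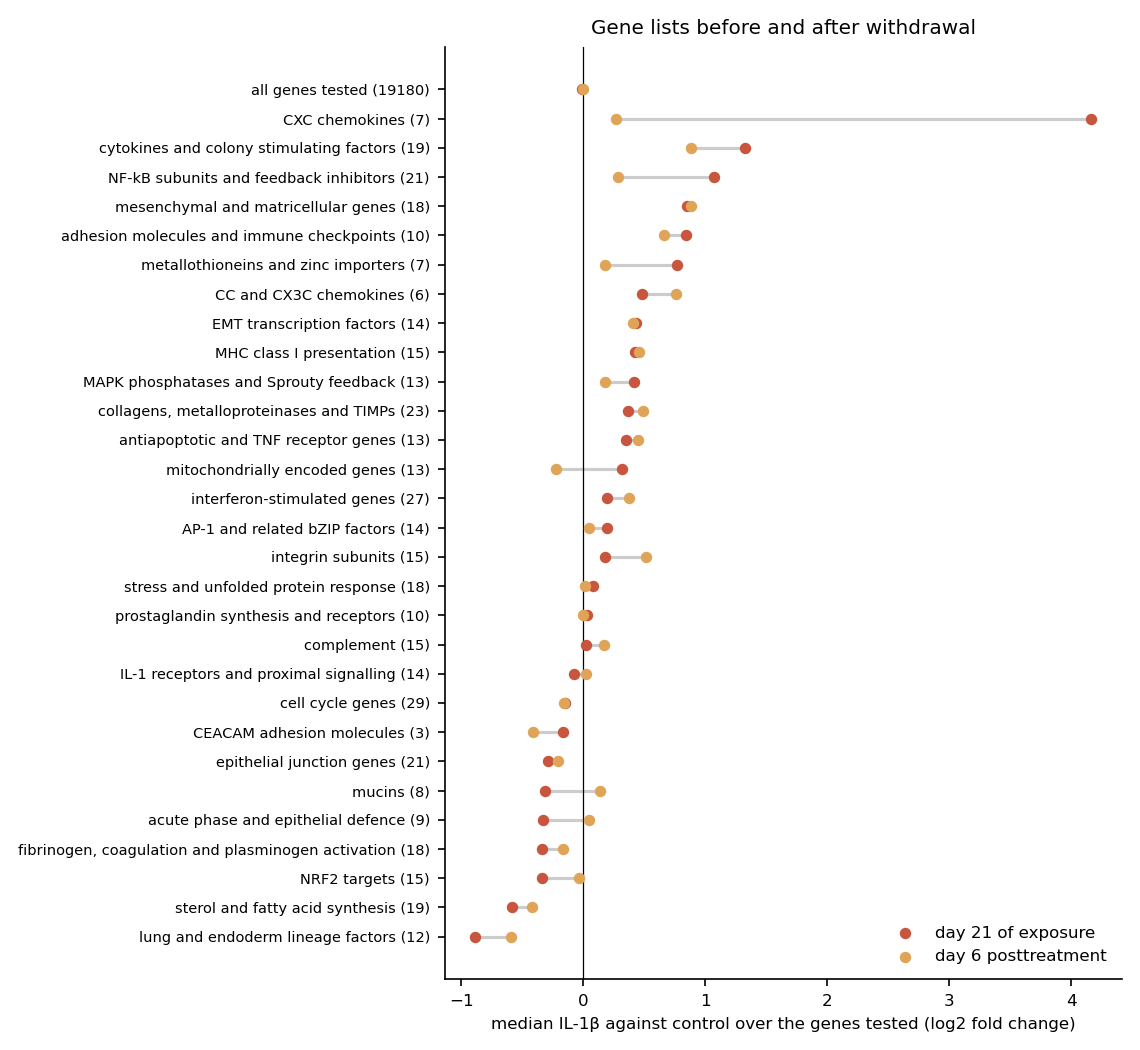
Median response (log2) of each gene list at day 21 and at day 6 after withdrawal, with all genes tested for reference. CXC chemokines move from 4.16 to 0.27, while mesenchymal and matricellular genes stay at 0.85 and 0.89.

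Some genes changed in the exposed cells without a called difference of responses, 39 of them lower and 25 higher, and those named here were chosen after their values were seen. For 5 of the 39 the controls had at most 3 counts in every library at both times, so that no fitted difference of responses is given for them. MIR3142HG, the host transcript of miR-146a, went from 13.5, 12.1 and 14.7 to 0.164, 0.116 and 0.116 CPM in exposed cells, at least 58.9-fold lower. CSF2, the cytokine GM-CSF, went from 2.55, 2.32 and 1.31 to 0.109, 0.116 and 0.116 CPM, at least 9.03-fold lower. Controls of both genes were at the floor on both days. IL6 fell from 124, 145 and 179.8 to 33.4, 47.1 and 27.2 CPM in exposed cells (-2.06 ± 0.49, adjusted p = 0.041) and stayed above its later controls (5.03, 6.05 and 2.405 CPM) with a called response of 3.03 ± 0.54. The adaptor kinase IRAK2, which relays the IL-1 receptor signal, fell by 1.79 on the log2 scale in exposed cells (adjusted p = 4.8e-05) and the metallothionein MT2A by 1.63 (adjusted p = 0.0071).

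On the rising side, the keratin KRT4 went from 0.272, 0.0749 and 1.601 to 4.26, 3.83 and 11.2 CPM in exposed cells (3.15 ± 0.58, adjusted p = 0.0032), still below later controls at 23.98, 22.98 and 46.7. The complement component C5 went from 2.93, 2.99 and 4.06 to 9.07, 13.4 and 24.9 CPM (2.24 ± 0.40, adjusted p = 0.0024), with later controls at 49.4, 57.9 and 78.5. H19, an imprinted noncoding RNA, rose from 0.0543, 0 and 0.205 to 0.601, 0.812 and 1.51 CPM (3.16 ± 0.57, adjusted p = 0.0023). In all 3 genes the exposed libraries of the 2 times did not overlap, and the differences of responses (3.02 ± 0.74, 1.70 ± 0.54 and 2.82 ± 0.69) had adjusted p-values of 0.14, 0.67 and 0.14.

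The same kind of contrast can be made in 12 other libraries, as the response at day 15 after withdrawal less the response at day 15 of exposure. Both contrasts come from 1 fit of all 36 libraries with a shared estimate of the spread, so they are not fully independent. Of the 19180 genes, 57 (0.297%) were called in it. Of the 26 genes, 22 were called there in the same direction and the other 4 (SVIL, SLC25A37, REEP1 and MATN2) had the same sign. CXCL8 had a difference of -5.84 in that contrast, CXCL1 -5.50, TNFAIP3 -2.24, LBH 3.42 and INHBB 2.24. REEP1 had 0.72 ± 0.39 (adjusted p = 0.59) against 2.51 in the first 6 days.

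The genes were also followed to days 15 and 30 after withdrawal. Of the 26 genes, 3 were called at day 15 (CCL20, INHBB and MATN2) and 3 at day 30 (CCL20, TNFAIP3 and INHBB). Over all genes 0.594% were called higher and 0.36% lower at day 15, and 0.433% and 0.464% at day 30. CCL20 held a response of 2.39 ± 0.45 and 2.34 ± 0.51 at these times, close to the 2.12 of day 6. INHBB went on toward its controls, from -3.31 at day 6 to -2.36 ± 0.20 and -1.64 ± 0.19, and MATN2 from 1.49 to 1.16 ± 0.18 and 0.54 ± 0.18. These steps between later times were not tested. Over the 228 induced responders the median response was 0.84 at day 15 and 0.71 at day 30, with 51 and 35 called, and over the 186 repressed ones -0.90 and -0.84, with 43 and 50 called. Of the 75 induced genes still called at day 6 with an unadjusted p over 0.05 for the difference, 44 were called at day 15 and 24 at day 30. Of the 59 repressed ones 28 and 29 were. PTPRD stood at 3.53 ± 0.42, NFASC at 2.22 ± 0.34, ITGB3 at 1.97 ± 0.27, FGB at -2.83 ± 0.45 and CLDN2 at -1.80 ± 0.30 on day 30, all called.

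**Figure D5:**
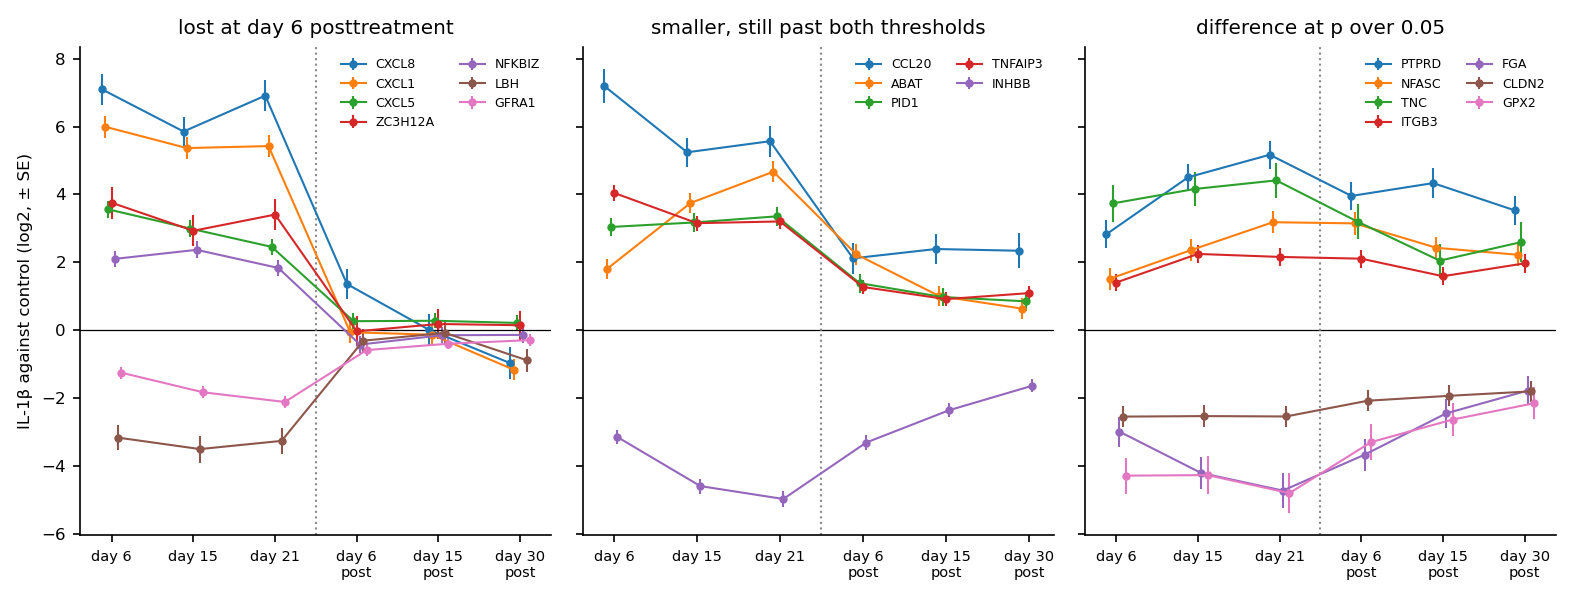
Response (log2 ± SE) at days 6, 15 and 21 of exposure and days 6, 15 and 30 after withdrawal. Shown are genes whose response fell or rose, and genes whose difference had an unadjusted p over 0.05. CXCL8 and CXCL1 drop at the first time after withdrawal, while PTPRD, NFASC and CLDN2 have the same sign on day 30 as on day 6 after withdrawal.

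The κB-like motif of the sequences above was counted in the promoter windows of RefSeq, which run from 250 bases before to 50 bases after the start site. Of the 16 induced genes that fell, 14 had a window and 11 of these held GGNNNTTCC on either strand (78.6%). Among the induced genes still called with an unadjusted p over 0.05 for the difference, 22 of 53 held it (41.5%). Among all 163 induced responders with a window 60 held it (36.8%), among the 11760 tested genes 28.2%, and among all 35116 windows 20.1%, where a gene counts once if any of its windows holds the motif. C15orf48, ZC3H12A and ABAT had no match in their windows. TGANTCA, an AP-1 motif, was held by 2 of the 14 (14.3%), 10 of the 53 (18.9%), 39 of the 163 (23.9%), 7.47% of the tested genes and 7.71% of all windows. Of the repressed genes, 2 of 4 that recovered held the κB-like motif, and 9 of 39 still called with an unadjusted p over 0.05 for the difference. The AP-1 motif was held by 0 and 6 of these. CXCL1, CXCL2 and CXCL3 have near-identical promoters and are not independent of each other, matches of the motifs may overlap, and a match describes letters and not binding.

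Some of the 26 calls changed with the libraries left out. With 1 of the 12 libraries left out at a time, 18 of the 26 genes were called in all 12 fits. The other 8 lost the call in at least 1 fit: AKR1B10 and PID1 in 7, SVIL in 6, CCL20 in 3 (day 21 control replicate 3 and later control replicates 1 and 3), DAPK1 in 2 (later control replicate 1 and withdrawn replicate 3), and ABAT and ZC3H12A (later control replicate 3) and REEP1 (withdrawn replicate 1) in 1. Both AKR1B10 and PID1 were lost without day 21 control replicate 2 or 3, IL-1β replicate 3 of day 21, later control replicate 1 or withdrawn replicate 3, AKR1B10 also without IL-1β replicate 2 of day 21 or later control replicate 2, and PID1 also without later control replicate 3 or withdrawn replicate 1. SVIL was lost without day 21 control replicate 2 or 3, later control replicate 1 or 2, or withdrawn replicate 1 or 3. With all libraries numbered 1 left out 3 of the 26 were called (CXCL8, CXCL1 and CXCL3), with those numbered 2 left out 5, and with those numbered 3 left out 21, with no change of sign in any of these fits.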

How the data were processed

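RNA sequencing was analysed from 36 libraries of A549 cells with or without IL-1β, of which 12 enter the difference of responses. The authors deposited raw counts per Ensembl gene (63677 genes and 5 summary lines per table), made from stranded mRNA libraries sequenced as single-end reads. Per the submitters' processing notes, bcl2fastq 2.17, TopHat2 2.0.14, Bowtie2 2.2.5, HTSeq 0.6.1 and GRCh37 were used; the strand setting and annotation release are not given in the sources used here, so reads of overlapping genes may be split. Reads on no gene (8.48% to 18.6%) or on several (2.62% to 4.18%) stayed out of library sizes.

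Counts were scaled by TMM and fitted with edgeR 4.0.16 (R 4.3.3, limma 3.58.1), with the 12 groups as terms, 24 residual degrees of freedom and the 19180 genes kept by filterByExpr. Quasi-likelihood tests were adjusted by the Benjamini-Hochberg method, and calls needed an adjusted p under 0.05 and an absolute log2 value over 1. The fit was tested on simulated data with known changes. Where every library of a group had at most 3 counts of a gene, that group was at the floor, and folds against it are lower bounds that cover counting error only. Alternatives covered normalization, count filters, DESeq2 1.42.0, the likelihood ratio test, replicate blocks, the mitochondrial share, thresholds and libraries left out. Python 3.11.15, pandas 2.3.3, numpy 2.4.6, scipy 1.17.1 and matplotlib 3.10.9 were used for summaries and figures.

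Genes were named by rule: the 12 lowest and 12 highest called differences that moved the same way in all 3 same-numbered sets at 1 CPM or more, the 10 induced and 10 repressed responders with the largest kept response, called members of the lists, and 11 genes that the study names. The 33 lists hold 526 symbols, 4 of them unmatched. Symbols were found for 55665 genes. The members and lists were chosen with earlier results of these data known, so they are not independent of them. Comparisons that share libraries are described side by side. Genes whose symbol the tables do not match were not analysed here.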

Additional observations from a re-analysis of the deposited data

Results flagged for a closer look

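In 4 of the 26 genes the tested difference of responses was more than a return toward the control, with a response after withdrawal that was opposite to that of day 21 or larger, at an unadjusted p under 0.05. AFAP1L2 had a difference of 2.29, and its exposed libraries lay below the controls at day 21 and above them after withdrawal, with both responses called. PRSS23, with a difference of 1.20, took the same course, but its responses did not pass the fold threshold. MATN2, with a difference of 1.45, was level with its controls at day 21 and above them 6 days after withdrawal and also at day 15. LCN2, with a difference of -4.90, was above its controls at day 21 and had 2 of 3 libraries below them after withdrawal, at 0 and 1 counts, and that response was not called. These 4 were looked at because of their values, and groups of 3 libraries were not searched for outliers.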

How the results depend on the processing

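None of the 26 differences of responses changed sign under any alternative that could be fitted, and CXCL8, CXCL1 and CXCL3 were called in each of theirs, while AKR1B10 was called in 14 of 27, SVIL in 15 and PID1 in 16. The counts moved more than the values. As reported, there were 17 falls, 9 rises, 16 induced genes that fell, 5 repressed genes that recovered, 94 induced and 88 repressed genes still called, 22 genes called in the contrast of day 15 and 88 genes changed in exposed cells.

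In the same order of results, DESeq2's Wald test gave 31 falls, 16 rises, 28 induced that fell, 10 repressed that recovered and 45 in the day 15 contrast, and edgeR's likelihood ratio test 16 rises, 10 repressed that recovered and 35 in the day 15 contrast. With high mitochondrial share as a covariate there were 31 falls, 17 rises, 29 induced that fell, 9 repressed that recovered, 165 repressed still called, 38 in the day 15 contrast and 154 changed in exposed cells. From the 12 libraries alone (18060 genes, 8 residual degrees of freedom) there were 9 falls, 3 rises, 9 induced that fell, 1 repressed that recovered and 10 in the day 15 contrast. Scaling by total counts, which shifts the median of all genes to 0.10, left 3 repressed genes that recovered. With at least 10 counts in every library there were 48 induced and 47 repressed genes still called and 53 changed in exposed cells. At an adjusted p under 0.05 alone 155 induced genes were still called, and at one under 0.01 with the fold threshold 61 induced and 58 repressed. The causes of these shifts were not tested.

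Leaving out 1 library or 1 replicate number gave 3 to 19 falls, 0 to 14 rises, 3 to 17 induced that fell, 0 to 9 repressed that recovered, 6 to 100 induced and 9 to 100 repressed genes still called, 1 to 25 in the day 15 contrast and 12 to 88 changed in exposed cells. With single libraries the ranges were 14 to 19, 7 to 11, 14 to 17, 3 to 6, 60 to 100, 52 to 100, 17 to 24 and 52 to 88. The libraries that moved a count by over 1.5 times were later control replicate 3 (60 induced and 52 repressed still called), withdrawn replicate 1 (52 repressed still called), withdrawn replicate 3 (3 recovered, 52 changed in exposed cells) and later control replicate 1 (3 recovered).

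The replicate numbers were checked for pairing between exposed and control libraries. The deviations of same-numbered libraries from their group means correlated at 0.23, 0.20 and 0.26 at day 21 and at -0.11, 0.70 and 0.72 after withdrawal, where withdrawn replicate 1 correlated best with control replicate 3 (0.60), so the numbers were not taken as pairs. With a replicate block, additive over the 36 libraries, there were 14 rises and 9 repressed genes that recovered, and with a replicate block within each time point 31 falls, 22 rises, 28 induced that fell, 15 repressed that recovered and 45 in the day 15 contrast. All 26 genes were called under both blocks. The block within time points gives no value for changes between time points of 1 group.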

Other observations

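Outside the chemokine and NF-κB groups, several secreted and signalling genes changed in the exposed cells in the first 6 days without a called difference of responses, and they were chosen after their values were seen. GPX3, an extracellular glutathione peroxidase, went from 8.53, 5.84 and 11.1 to 2.08, 1.74 and 1.91 CPM (-2.14 ± 0.41, adjusted p = 0.0047), and the monocarboxylate transporter family gene SLC16A6 from 66.1, 69.8 and 80.7 to 17.6, 28.3 and 19.9 (-1.72 ± 0.35, adjusted p = 0.0084). IL32, a proinflammatory cytokine, went from 19.1, 20.9 and 19.4 to 7.81, 7.19 and 5.73 CPM, and CREB5, a bZIP factor, from 21.9, 26.1 and 11.5 to 5.79, 7.88 and 4.92. The exposed libraries of the 2 times did not overlap in any of these 4 genes, and the differences of responses were -2.26 ± 0.62, -2.07 ± 0.49, -1.51 ± 0.41 and -1.65 ± 0.40.

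Other genes were higher in the withdrawn cells than in the exposed ones. OAS1, an interferon-induced antiviral enzyme, went from 9.29, 8.61 and 12.1 to 23.1, 24 and 20.4 CPM, with later controls at 19.6, 18.7 and 16.02, and its response was -0.84 ± 0.19 at day 21, 0.31 ± 0.19 at day 6 after withdrawal and 1.27 ± 0.19, called, at day 30. DIO2, the deiodinase that activates thyroid hormone, went from 1.41, 1.42 and 1.31 to 3.71, 3.83 and 4.29 CPM and was called only after withdrawal, at days 6 (2.47 ± 0.39) and 15 (1.81 ± 0.37). HTRA1, a secreted serine protease, had 4.18, 4.57 and 5.09 CPM with IL-1β and 11.6, 7.07 and 11.1 after withdrawal against 6.58, 4.23 and 6.27 in the later controls. These were seen as values and no explanation was tested.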
